A study of Sus scrofa with 24 samples.

Results

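ssc-miR-224 and ssc-miR-452 are 2 known pig miRNAs whose hairpins lie in one intron of GABRE on the X chromosome, and their levels were followed while subcutaneous and intramuscular preadipocytes became adipocytes. The members are the entries of the deposited miRNA table with these names, 2 of 1587 entries, and neither carries an arm suffix. They were chosen by their measured levels over the 8 groups in earlier results of the same libraries, so their levels and changes are given here as a description, with no test.

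Preadipocytes were isolated by collagenase digestion from Yorkshire piglets of 6 days, from back subcutaneous fat (BF) and from the Longissimus dorsi muscle (IMF), the muscle with more enzyme and for longer than the fat. The 2 sources were then cultured and induced by one protocol. Day 0 cultures were collected before induction, day 2 cultures at the end of the cocktail of insulin, dexamethasone and the phosphodiesterase inhibitor IBMX, day 4 cultures after a further period in insulin, and day 8 cultures after a return to growth medium. The groups are BF-0d, BF-2d, BF-4d, BF-8d, IMF-0d, IMF-2d, IMF-4d and IMF-8d, with 3 small RNA libraries each and 24 in all. The cells came from 3 piglets, but no library is tied to a single piglet, so an SD measures the spread between libraries, which may be technical. The purity of the cultures is not given in the sources used here.

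A miRNA is cut from a hairpin transcript and loaded into Argonaute, where bases 2 to 8 of the mature strand, the seed, pair with target mRNAs and lower their output. GABRE encodes the epsilon subunit of the GABA-A receptor, a chloride channel known mainly from nerve cells, and miRNAs in a host intron on the sense strand can be made from the host's own transcript. miR-224 is known from mouse adipocyte cultures as a miRNA that restrains early differentiation and acts on fatty acid metabolism, with the transcription factor EGR2 and the enzyme ACSL4 among its reported targets. miR-452 is best known from neural crest and tumour cells. The mRNA of GABRE was not analysed here.

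The mature sequences are shown because their seeds set which mRNAs each member can pair with. They were read 5′ to 3′ from the study's miRNA list, written with T for U, with bases 2 to 8 in capitals.
ssc-miR-224: cAAGTCACtagtggttccgttta
ssc-miR-452: aACTGTTTgcagaggaaactga
miR-224 has 23 nt and a GC content of 43.5%, and miR-452 has 22 nt and 40.9%. The seeds AAGTCAC and ACTGTTT differ, so the members share a locus but not a seed. Among the 958 listed entries with a sequence at hand, 358 of them known, 0 others carried either seed or either mature sequence. Each mature sequence matched Sscrofa11.1 exactly at 1 place. Reads of the members are thus not shared with another listed entry of the same sequence.

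The hairpins show from which arm each mature miRNA is cut. They were read from Sscrofa11.1 on the minus strand, with the mature miRNA in capitals.
MIR224 hairpin: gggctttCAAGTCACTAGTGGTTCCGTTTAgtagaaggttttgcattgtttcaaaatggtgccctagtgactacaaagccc
MIR452 hairpin: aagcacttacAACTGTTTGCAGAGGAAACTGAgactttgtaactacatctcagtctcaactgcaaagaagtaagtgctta
Both mature miRNAs lie in the 5′ arm, at bases 8 to 30 of the 81-base MIR224 hairpin and at bases 11 to 32 of the 80-base MIR452 hairpin. The MIR224 hairpin is at chrX:123283427-123283507 and the MIR452 hairpin at chrX:123284480-123284559, with 972 bp between them. Both lie between exons 6 and 7 of GABRE, on the strand of the gene, in an intron of 3635 bp of the RefSeq annotation of Sscrofa11.1. miR-452 comes first in the direction of transcription, 126 bp after exon 6, and miR-224 lies 1178 bp after it. Among the 958 listed entries with a sequence at hand, the only other within 1 Mb was ssc-miR-105-1. Its gene MIR105-1 lies 343821 bp away in the first intron of GABRA3, the gene of another GABA-A receptor subunit. The entry ssc-miR-105-1 had 2 reads in all 24 libraries together and was at 0 in 22 of them, which allows no comparison at this depth.

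**Figure D1:**
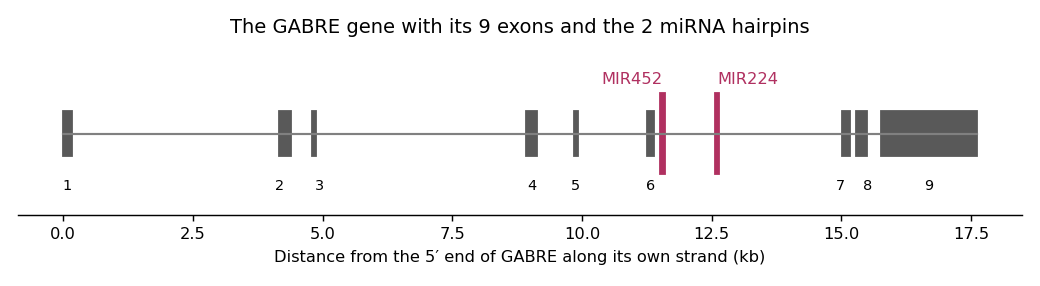
Map of GABRE along its own strand. Grey boxes are the 9 exons and red boxes the 2 miRNA hairpins, with the distance from the 5′ end of the gene in kb; MIR452 begins 126 bp after exon 6 and MIR224 1178 bp after it, in the same intron.

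Levels are given in TPM, the authors' name for reads per 1000000 reads counted on miRNAs in a library. One sequenced read covers a whole mature miRNA, so no correction for length was needed. How well each sequence is captured in a library was not measured, so reads of the 2 members need not give their relative amounts. Between 4954845 and 16863560 reads per library were counted on miRNAs (median 10614384). A floor of 3 reads was worth 0.178 to 0.605 TPM. Floors and counting intervals cover counting error only, since PCR copies cannot be told from separate molecules. miR-143, miR-145, miR-199 and miR-214, taken as mesenchymal markers, summed to between 78759 and 110649 TPM in a library. Markers of other cells were lower: the blood list summed to 0.662 to 8.08 TPM, with miR-144, miR-150 and miR-223 at 0 in 22 libraries or more, the endothelial list to 18.2 to 90.9 TPM and the epithelial list to 0 to 1.90 TPM. The skeletal muscle list summed to 475 to 2362 TPM, almost all of it miR-1. Of its other entries, miR-133a-3p and miR-499-5p were present in every library, with group means of 7.68 to 26.6 and 11.9 to 20.1 TPM, miR-133a-5p and miR-133b were at 0 in 2 libraries each, miR-206 in 13 and miR-499-3p in 20. In bulk cultures, more cells that make a miRNA and more of it per cell cannot be told apart.

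Both members were near absent in subcutaneous preadipocytes, were already present in intramuscular preadipocytes, and stood highest in both sources on day 8. Their mean over the 24 libraries was 5.09 TPM for miR-224 and 7.70 TPM for miR-452, so both passed the filter of a mean of at least 1 TPM that kept 430 entries. miR-224 had at least 1 read in every library and lay at or under the floor of 3 reads in 5 of them. miR-452 lay at or under the floor in 4 libraries, 2 of them at 0. Among the 430 entries ranked by mean, miR-224 went from place 419 in BF-0d to 201 in BF-8d and miR-452 from place 418 to 187, while in IMF they went from 294 to 195 and from 337 to 161.

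**Figure D2:**
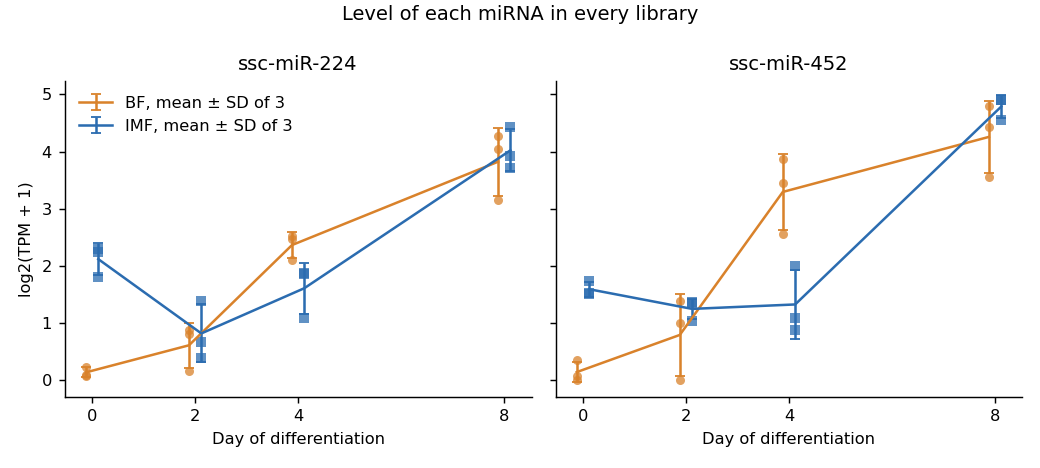
Level of miR-224 (left) and miR-452 (right) as log2(TPM + 1) in each of the 24 libraries against the day of differentiation, BF in orange circles and IMF in blue squares. Lines join group means with SD over 3 libraries; both members lie near 0 in BF-0d, and the day 8 libraries of both sources lie above 3.

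miR-224, the member with reported roles in fat cells, gave 0.181, 0.0663 and 0.0593 TPM in the BF-0d libraries, from 2, 1 and 1 reads. In BF-2d it gave 0.743, 0.840 and 0.114 TPM, from 6, 11 and 1 reads. In BF-4d the values were 3.28, 4.55 and 4.76 TPM, and in BF-8d 7.87, 15.5 and 18.4 TPM. The first 2 days overlapped, and from day 2 on each day lay wholly above the one before it. The 3 BF-8d libraries held 101, 96 and 91 reads of miR-224 although their totals were 12836120, 6201608 and 4954845, so the library with the most reads gave the lowest TPM value.

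In intramuscular cells miR-224 started higher and passed through a low point. The IMF-0d libraries gave 3.75, 3.94 and 2.49 TPM, and those of IMF-2d 0.599, 1.61 and 0.318 TPM, all below day 0. The IMF-4d libraries gave 2.66, 2.64 and 1.14 TPM and overlapped IMF-2d. In IMF-8d the values were 20.5, 14.2 and 12.1 TPM, from 269, 213 and 157 reads, and all lay above the earlier days.

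miR-452, cut from the hairpin nearer to exon 6, was likewise at the limit of detection in BF-0d, with 0.271, 0 and 0.0593 TPM from 3, 0 and 1 reads. A count of 0 in the second of these libraries allows up to 3 reads. BF-2d gave 1.61, 0.993 and 0 TPM, from 13, 13 and 0 reads, BF-4d 4.92, 13.5 and 9.96 TPM, and BF-8d 10.8, 20.5 and 26.6 TPM. BF-4d lay wholly above BF-2d, whereas BF-8d overlapped BF-4d.

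For intramuscular cells miR-452 gave 2.35, 1.86 and 1.87 TPM in IMF-0d, 1.60, 1.51 and 1.06 TPM in IMF-2d and 3.02, 0.837 and 1.14 TPM in IMF-4d. These 3 days stayed within 3.02 TPM. IMF-8d stood apart, with 28.8, 28.9 and 22.6 TPM from 378, 432 and 294 reads.

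The third library of BF-2d held 1 read of miR-224 and 0 of miR-452, against 6 to 13 reads in the other 2 libraries of that group. Over the 430 tested entries its mean absolute log2 gap to the other BF-2d libraries was 0.409, against 0.287 and 0.275 for those libraries, while its gap to BF-0d (0.412) lay between theirs (0.422 and 0.379). Its part in the values of day 2 is seen by leaving it out: the log2 change from BF-0d to BF-2d was then 0.70 in place of 0.47 for miR-224 and 1.05 in place of 0.65 for miR-452. Without the first BF-2d library, the highest in miR-452, the change of miR-452 was 0.35.

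Ordered by group mean, miR-224 stood at 15.6 ± 4.38 (SD, n = 3) in IMF-8d, 13.9 ± 5.42 in BF-8d, 4.19 ± 0.800 in BF-4d, 3.39 ± 0.786 in IMF-0d, 2.15 ± 0.875 in IMF-4d, 0.842 ± 0.678 in IMF-2d, 0.565 ± 0.394 in BF-2d and 0.102 ± 0.0682 TPM in BF-0d. Of the 7 pairs of neighbours in this order, 6 overlapped, and the step without overlap was that between BF-8d and BF-4d. miR-452 followed the same order of groups, with 26.8 ± 3.61, 19.3 ± 8.01, 9.47 ± 4.33, 2.02 ± 0.278, 1.66 ± 1.18, 1.39 ± 0.288, 0.867 ± 0.812 and 0.110 ± 0.143 TPM. Here too 6 of 7 neighbouring pairs overlapped, but the step without overlap was that between BF-4d and IMF-0d. miR-224 was thus set apart on day 8, and miR-452 on day 8 and in BF-4d.

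From day 0 to day 8 in subcutaneous cells, the log2 change on the log2(TPM + 1) scale was 3.68 ± 0.28 (SE; 95% interval 3.08 to 4.28) for miR-224 and 4.11 ± 0.29 (3.49 to 4.73) for miR-452. That scale understates the change of entries near 0. The ratio of pooled reads, scaled to the reads on miRNAs, was 129 for miR-224 (95% counting interval 49.9 to 477) and 178 for miR-452 (68.9 to 656), each resting on 4 reads in BF-0d. All day 8 libraries lay above all day 0 libraries for both members, as for 32.8% of the 430 entries. By size of change on the log2(TPM + 1) scale miR-452 was 8th and miR-224 10th from the top of the 430.

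In intramuscular cells the change from day 0 to day 8 was 1.90 ± 0.24 (1.33 to 2.47) for miR-224 and 3.19 ± 0.16 (2.81 to 3.57) for miR-452, both without overlap, as for 30.9% of the entries. The pooled reads gave 4.58-fold (3.70 to 5.71) and 13.2-fold (10.2 to 17.4). miR-452 was 3rd and miR-224 10th from the top. Both members thus stood among the 10 largest changes in each source, and the folds in IMF started from a day 0 level well above that of BF. Beside these changes, the summed blood list of 7 entries was 6.68 to 8.08 TPM in IMF-8d, against 0.662 to 1.87 TPM on the earlier IMF days, and in BF 1.19 to 1.99, 1.86 to 2.52, 2.81 to 6.37 and 3.71 to 4.44 TPM on days 0, 2, 4 and 8. In IMF-8d it was mainly miR-486, with a mean of 6.27 TPM against 0.834 TPM in IMF-0d. miR-142-3p was at 0.616 TPM in IMF-0d and 0.554 TPM in IMF-8d, miR-142-5p at 0.0346 and 0.150 TPM, and miR-451 at 0.160 and 0.408 TPM. In BF, miR-486 was at 0.384 TPM on day 0 and 2.43 TPM on day 8, and miR-142-3p at 0.426 and 0.826 TPM. There miR-142-5p was at 0.0791 and 0.444 TPM, and miR-451 at 0.555 and 0.277 TPM. In IMF-8d miR-144, miR-150 and miR-223 were at 0, as in nearly every library. The part of blood cells in the members' levels was not tested.

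TPM values are shares of one total, and the most abundant miRNA, miR-21-5p, went from 572485 ± 26632 (SD, n = 3) to 355029 ± 66398 TPM between BF-0d and BF-8d. The median log2 change over the 430 entries was 0.15 in subcutaneous cells, and median-of-ratios scaling lowered it by 0.15. With that scaling the members' changes from BF-0d to BF-8d were 3.46 and 3.89. In the other comparisons where this scaling moved the median by over 0.1, the shift was 0.13 for IMF-2d to IMF-4d, -0.15 for IMF-4d to IMF-8d, and 0.12, 0.13, 0.34 and 0.25 for IMF minus BF on days 0, 2, 4 and 8.

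**Figure D3:**
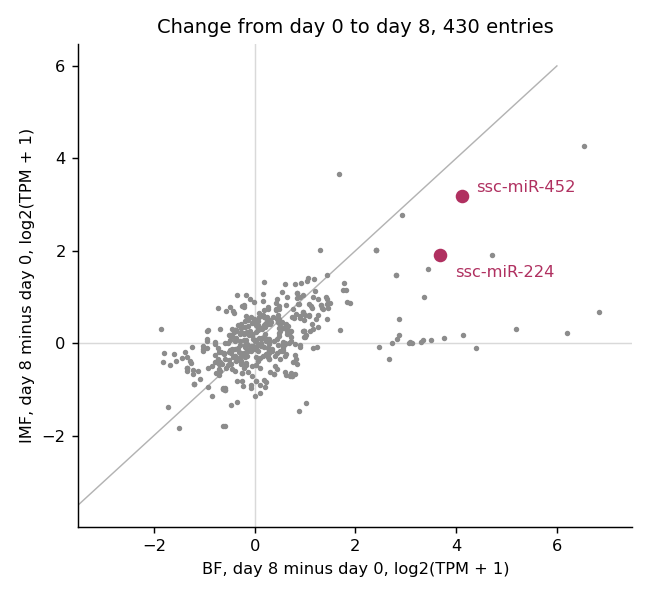
Change from day 0 to day 8 in log2(TPM + 1) for 430 entries, BF on the x axis and IMF on the y axis, with the members in red and the line of equal change in grey. Both members lie far to the upper right and below the line, at 3.68 and 1.90 for miR-224 and at 4.11 and 3.19 for miR-452.

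Step by step, both members were higher on each later day in BF by group mean. From BF-0d to BF-2d the log2 changes were 0.47 ± 0.20 and 0.65 ± 0.34 for miR-224 and miR-452, with overlapping libraries. The pooled reads of this step gave 6.46-fold (2.13 to 26.2) and 9.33-fold (3.24 to 36.8), from 4 reads of each member in BF-0d. From BF-2d to BF-4d they were 1.75 ± 0.29 and 2.50 ± 0.41, without overlap for both, as for 24.4% of the entries. The pooled reads gave 7.09-fold (4.30 to 12.4) and 11.12-fold (7.43 to 17.3). The summed blood list was 1.86 to 2.52 TPM in BF-2d and 2.81 to 6.37 TPM in BF-4d, and the summed muscle list 475 to 544 and 1043 to 1526 TPM. The summed endothelial list was 26.4 to 53.5 and 53.6 to 86.4 TPM, while the epithelial and mesenchymal lists overlapped. The part of these cells in this step was not tested. From BF-4d to BF-8d miR-224 was higher by 1.46 ± 0.32 without overlap, as for 12.6% of the entries (1.79 without the first BF-8d library), and miR-452 by 0.96 ± 0.40 with overlap, or by 0.60 without the first BF-4d library.

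The intramuscular steps had another shape. From IMF-0d to IMF-2d the log2 change was -1.30 ± 0.29 for miR-224, the second lowest of the 430, and -0.34 ± 0.12 for miR-452, both with day 2 wholly below day 0, as for 10.7% of the entries. From IMF-2d to IMF-4d it was 0.79 ± 0.33 for miR-224 and 0.08 ± 0.31 for miR-452, with overlap for both, and that of miR-452 ranged from -0.26 to 0.30 when 1 library was left out, lowest without the first and highest without the second IMF-4d library. The last step, from IMF-4d to IMF-8d, was the largest, with 2.41 ± 0.29 for miR-224 and 3.46 ± 0.31 for miR-452, without overlap, as for 30.5% of the entries. The pooled reads of this step gave 7.00-fold (5.56 to 8.91) for miR-224 and 17.0-fold (13.1 to 22.5) for miR-452.

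Between the sources, both members were higher in IMF than in BF on day 0, lower on day 4, and overlapped on days 2 and 8. On day 0 the log2 difference, IMF minus BF, was 1.98 ± 0.15 for miR-224 and 1.45 ± 0.11 for miR-452, with IMF wholly above BF, as for 18.1% of the entries. The pooled reads gave 36.5-fold (13.8 to 137) and 21.9-fold (8.13 to 83.0). On day 2 the difference was 0.21 ± 0.31 and 0.46 ± 0.35, and it ranged from -0.07 to 0.42 for miR-224 and from 0.06 to 0.75 for miR-452 when 1 library was left out, with 0.06 without the third BF-2d library.

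On day 4 it was -0.75 ± 0.28 for miR-224 and -1.97 ± 0.36 for miR-452, with IMF wholly below BF for both. The share of entries with that order was 41.2%, and the median difference of all entries on day 4 was -0.34, so the position of miR-224, 130th from the bottom of 430, was not unusual on that day. miR-452 was 14th from the bottom. With median-of-ratios scaling the day 4 differences were -0.44 and -1.67. Without the third IMF-4d library the difference of miR-224 was -0.50. Some marker lists also lay wholly lower in IMF-4d than in BF-4d. The blood list summed to 0.662 to 1.60 TPM in IMF-4d and 2.81 to 6.37 TPM in BF-4d. The endothelial list summed to 18.7 to 30.9 and 53.6 to 86.4 TPM, and the muscle list to 696 to 985 and 1043 to 1526 TPM. The epithelial and mesenchymal lists overlapped. The part of these cells in the day 4 differences was not tested. On day 8 the differences were 0.20 ± 0.29 and 0.53 ± 0.28, with overlapping libraries, and 0.50 and 0.84 with median-of-ratios scaling. Without the first BF-8d library, the deepest of its group, they were -0.14 and 0.18, and without the third 0.43 and 0.80. For miR-224 the day 8 difference ranged from -0.14 to 0.43 when 1 library was left out, so it had no settled sign.

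The ratio of miR-452 to miR-224 within a library is free of the scaling of that library. It comes from the same reads as the levels by which the members were chosen, so it too is a description. It was taken as log2 of reads with 0.5 added to each, and describes reads rather than amounts. miR-452 exceeded miR-224 in all 3 libraries of BF-4d, BF-8d and IMF-8d and in 0 of 3 of IMF-0d. The mean log2 ratio was 0.46 ± 0.067 (SD, n = 3) in BF-8d and 0.80 ± 0.28 in IMF-8d, where the reads were most numerous, and 1.07 ± 0.49 in BF-4d. In IMF-0d it was -0.71 ± 0.33, from 100 reads of miR-224 and 60 of miR-452. The other groups had a wider spread, with -0.37 ± 1.08 in BF-0d, -0.10 ± 1.35 in BF-2d, 0.95 ± 0.91 in IMF-2d and -0.48 ± 0.99 in IMF-4d.

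Over the days and sources the ratio had no common direction. IMF minus BF was -0.13 log2 units on average within day, and by day -0.34, 1.05, -1.55 and 0.34. Days accounted for 35.9% of the sum of squares of the ratio in BF and for 62.4% in IMF. Libraries assigned to days at random would also give a share, and a larger one with fewer libraries per day. The shares are therefore not read as a change over days. Without the libraries numbered 1, 2 or 3 in turn the BF share was 66.4%, 25.2% or 48.7% and the IMF share 64.5%, 96.4% or 60.8%, and without day 0 they were 33.0% and 49.7%. The second IMF-4d library held 41 reads of miR-224 and 13 of miR-452, the lowest ratio of its group.

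**Figure D4:**
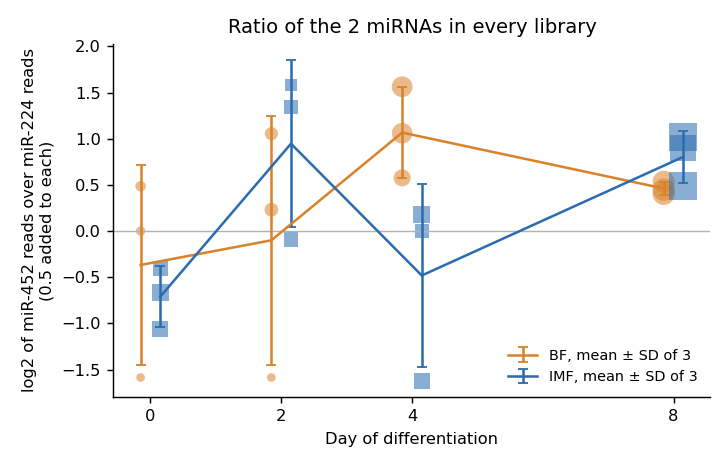
log2 ratio of miR-452 reads to miR-224 reads, with 0.5 added to each, in every library against the day, BF in orange circles and IMF in blue squares, with larger symbols for more reads. Lines join group means with SD over 3 libraries; the 3 libraries of BF-8d lie close together at 0.46 ± 0.067, while BF-0d and BF-2d, with few reads, spread widely.

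The members were also compared with all other tested entries by the shape of their profiles. Each entry's 8 group means of log2(TPM + 1) were scaled to mean 0 and SD 1, and the distance is the mean absolute difference between such profiles, in SD units. The distance between the members was 0.22, against a median of 1.05 between the members' mean profile and the other 428 entries. Of those, 0 were closer to miR-224 than miR-452 was, and 1 was closer to miR-452 than miR-224 was. With a pseudocount of 0.1 these counts were 1 and 2, as they were without the libraries of number 1. Without number 3 they were 2 and 0, without number 2 they were unchanged, and with median-of-ratios scaling they were 0 and 0. These distances describe 8 groups from the same libraries and carry no test, and neither do the changes of the entries chosen by them.

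The 5 known entries closest to the members' mean profile were miR-133a-3p (0.18), miR-210 (0.32), miR-146b (0.33), miR-532-5p (0.37) and miR-29c (0.41). Their mature sequences, with bases 2 to 8 in capitals, are shown because entries alike in profile could also have been alike in seed.
ssc-miR-133a-3p: tTGGTCCCcttcaaccagctg
ssc-miR-210: cTGTGCGTgtgacagcggctga
ssc-miR-146b: tGAGAACTgaattccataggc
ssc-miR-532-5p: cATGCCTTgagtgtaggaccgt
ssc-miR-29c: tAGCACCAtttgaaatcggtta
None of these 5 seeds equals AAGTCAC or ACTGTTT.

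**Figure D5:**
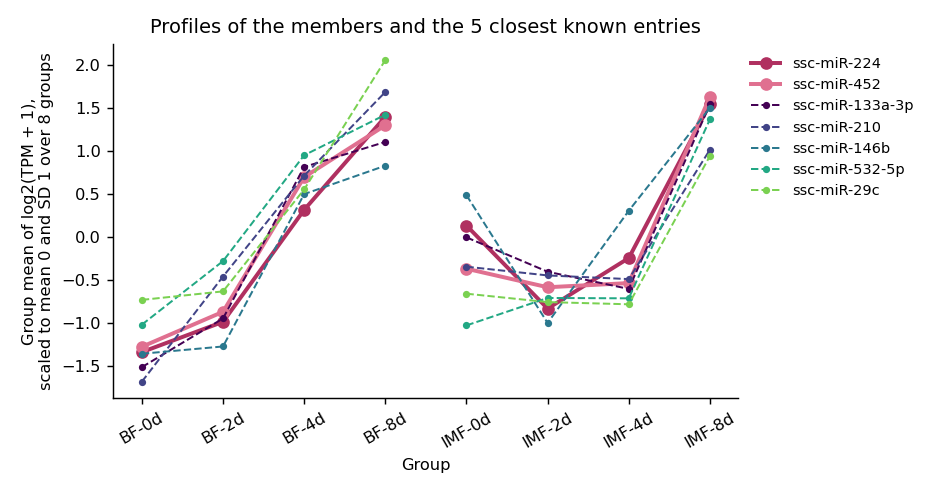
Profiles of the members (thick lines) and the 5 closest known entries (dashed lines) over the 8 groups, each as group means of log2(TPM + 1) scaled to mean 0 and SD 1. All 7 profiles are lower in BF-0d than in BF-8d and lower in IMF-0d than in IMF-8d, and miR-133a-3p lies at a distance of 0.18 from the members' mean profile.

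miR-133a-3p, a miRNA of skeletal muscle, went from 7.68 ± 0.146 to 22.4 ± 1.11 TPM (SD, n = 3) in BF and from 14.7 ± 3.85 to 26.6 ± 2.32 TPM in IMF between days 0 and 8. Its log2 changes were 1.43 ± 0.21 (SE) and 0.84 ± 0.20. Beside it, the mean of the summed muscle list was 930, 511, 1238 and 1773 TPM over the BF days and 1311, 949, 842 and 1268 TPM over the IMF days, so from day 0 to day 8 that list was higher in BF and not in IMF, where its lowest mean was on day 4. The part of muscle cells in the members' levels was not tested.

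miR-210, the miRNA known from the response to low oxygen, went from 17.8 ± 2.39 to 498 ± 103 TPM in BF and from 67.9 ± 8.60 to 258 ± 44.1 TPM in IMF. Its log2 changes were 4.71 ± 0.21 and 1.90 ± 0.17. It was far more abundant than the members in all groups, and its BF-0d mean was below its IMF-0d mean, as were theirs.

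miR-146b, induced by inflammatory signals and known to favour adipocyte differentiation, went from 4.84 ± 1.24 to 62.3 ± 12.8 TPM in BF (log2 change 3.44 ± 0.23) and from 42.6 ± 8.88 to 130 ± 19.0 TPM in IMF (1.60 ± 0.19). In IMF-2d it stood at 7.68 ± 2.12 TPM. That low point on day 2 is shared with miR-224 and miR-452, whose means were also lowest among the IMF days in IMF-2d. For both members IMF-2d overlapped IMF-4d.

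miR-532-5p, from another X-linked intronic cluster in mammals, went from 1032 ± 292 to 1726 ± 359 TPM in BF (0.76 ± 0.22) and from 1021 ± 230 to 1689 ± 174 TPM in IMF (0.74 ± 0.18). miR-29c, a miRNA that targets collagen and insulin signalling mRNAs, went from 0.713 ± 0.0814 to 3.38 ± 1.12 TPM in BF (1.33 ± 0.25) and from 0.770 ± 0.288 to 1.98 ± 0.280 TPM in IMF (0.76 ± 0.15). Both were higher on day 8 than on day 0 in each source, with smaller log2 changes than the members. Unlike the members, they had close means in BF-0d and IMF-0d. The closest new entry, novel_miR_531, was 13th among all entries, at a distance of 0.50, with 3.24 ± 2.23 TPM in BF-8d and 5.28 ± 1.12 TPM in IMF-8d.

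Entries that went from at most 3 reads in every BF-0d library to at least 20 reads in every BF-8d library numbered 13, and 2 of them were known, miR-224 and miR-452. The other 11 were newly predicted entries. By mean level in BF-8d, from 6.81 to 115 TPM over the 13, miR-452 was 5th and miR-224 7th. In IMF-8d, 10 of the 11 new entries had a mean of at most 0.645 TPM, against 15.6 and 26.8 TPM for the members. The remaining new entry, novel_miR_298, named after its values were seen, gave 105 ± 47.3 TPM in BF-8d and a mean of 22.6 TPM in IMF-8d. In IMF the same thresholds were met by 0 entries.

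Other miRNAs with a known part in fat cell differentiation were read from 2 lists, 1 of miRNAs reported to promote and 1 of miRNAs reported to repress it. A call needed a Benjamini-Hochberg FDR under 0.05 in limma and a fold change above 1.5. From BF-0d to BF-8d, 27.9% of the 430 entries were called higher and 14.9% lower, and from IMF-0d to IMF-8d 19.8% and 10.7%. Of 27 tested promoting entries, 11 rose, 2 fell and 14 were not called in BF, and 12 rose, 0 fell and 15 were not called in IMF. Their median log2 change was 0.45 in BF and 0.29 in IMF, beside 0.15 and 0.07 over all entries. Of 24 repressing entries, 6 rose, 8 fell and 10 were not called in BF, with a median of -0.12. In IMF 2 rose, 1 fell and 21 were not called, with a median of -0.03. The 3 IMF calls among the repressing entries rest on single libraries: 5 were called without the second IMF-0d library, 2 without the first and 1 without the third, and 2 or 1 without the first or the second IMF-8d library. With no filter 0 were called, and with edgeR or DESeq2 on whole reads 7.

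Among the promoting entries miR-210 and miR-146b, described above, had the largest rises in BF, and miR-30b-5p, of a family that favours fat cell differentiation, the largest in IMF. miR-30b-5p rose from 27.3 ± 5.45 to 191 ± 11.07 TPM in IMF (log2 change 2.78 ± 0.17, limma adjusted p = 7.13e-05). The falls in BF were those of miR-143-5p, from 102 ± 39.5 to 40.5 ± 11.6 TPM (-1.28 ± 0.27, adjusted p = 0.00112), and of miR-21-5p, by 0.71 on the log2 scale (adjusted p = 0.0143).

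Among the repressing entries the largest rises in BF were those of miR-221-5p, from 229 ± 24.7 to 1864 ± 901 TPM (2.87 ± 0.31, limma adjusted p = 1.20e-06), and of miR-138, known to hold back adipogenic differentiation of stem cells, from 1.25 ± 0.558 to 15.2 ± 2.92 TPM (2.87 ± 0.25, adjusted p = 8.12e-08). miR-145-3p and miR-145-5p, from one hairpin, fell in BF by 1.68 and 1.34 on the log2 scale (adjusted p = 2.52e-05 and 8.32e-05). In IMF let-7i-3p rose from 1.89 ± 0.333 to 4.63 ± 1.14 TPM (0.95 ± 0.18, adjusted p = 0.00890). miR-155-5p, which targets the early adipogenic factor C/EBP-beta, rose from 397 ± 108 to 721 ± 153 TPM (0.87 ± 0.24, adjusted p = 0.0289). miR-130a, a repressor of PPARG, fell from 29.9 ± 5.20 to 17.0 ± 5.35 TPM (-0.81 ± 0.25, adjusted p = 0.0441). The change of miR-224, with a reported restraining role of its own, exceeded that of every repressing entry tested on the log2(TPM + 1) scale, in BF and in IMF. Since miR-224 was chosen with these levels in view, this order is a description with no test.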

How the data were processed

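Small RNA libraries of 24 adipocyte cultures were read as single ends of 50 nt. The authors removed adapters and low-quality reads, mapped the rest to Sscrofa11.1 without mismatches by Bowtie and assigned them to known miRNAs (BLAST on miRBase) or to new miRNAs found by miRDeep2, with DESeq2 as their test. The values deposited by the authors are RPM, named TPM: reads per 1000000 reads counted on miRNAs. All values lay within 0.05 of a whole read (largest gap 0.000569), so whole reads were recovered. Molecular identifiers are not named in the sources used here.

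The members and lists were chosen with earlier results of these data known. The main fit was limma 3.58.1 (R 4.3.3, eBayes with trend) on log2(TPM + 1), with the 6 libraries of a comparison and 430 entries (270 known) with a mean of at least 1 TPM. SE and 95% intervals come from it. Pooled reads have exact binomial intervals. The ratio of the members was described without its permutation tests, since it comes from the reads by which they were chosen. Comparisons were made from day 0 to day 8, between adjacent days and between sources, 12 in all. Named are the members, the 5 closest known entries and the closest new one by profile, list entries with the largest called changes, miRNAs that share a seed or lie within 1 Mb, and known entries that went from at most 3 to at least 20 reads. Sequences came from the study's list of 958 entries and from Sscrofa11.1 with RefSeq annotation. The alternatives were another pseudocount (0.1), other filters, a single fit to the 24 libraries, a block for the replicate number, scaling by median of ratios, edgeR 4.0.16 and DESeq2 1.42.0 on whole reads, another ratio pseudocount, the ratio without day 0, and leaving out libraries. Fits were tested on simulated data. Tables and figures were made in Python 3.11.15 with pandas 2.3.3, NumPy 2.4.6, Matplotlib 3.10.9 and SciPy 1.17.1.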

Additional observations from a re-analysis of the deposited data

Results flagged for a closer look

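The changes of the members between days were set side by side in IMF and BF, from one limma fit of all 24 libraries over the 430 entries. Since the members were chosen with these levels in view, the differences are a description, with no test. For 4 steps the difference, IMF minus BF, was largest relative to its SE. For miR-224 these were the change from day 0 to day 2 (-1.77 ± 0.42, SE, log2) and that from day 0 to day 8 (-1.78 ± 0.42). For miR-452 they were the change from day 2 to day 4 (-2.42 ± 0.48) and that from day 4 to day 8 (2.50 ± 0.48). On the log2(TPM + 1) scale, which understates changes near 0, the other 4 differences were smaller: for miR-224 -0.96 ± 0.42 from day 2 to day 4 and 0.95 ± 0.42 from day 4 to day 8, and for miR-452 -0.99 ± 0.48 from day 0 to day 2 and -0.92 ± 0.48 from day 0 to day 8. The order depends on that scale: for miR-452 from day 0 to day 8, DESeq2 on whole reads gave 3.61 in IMF and 7.47 in BF.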

How the results depend on the processing

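The members were measured by few reads, at most 432 in a library, and lay at or under 3 reads in 5 libraries (miR-224) and 4 libraries (miR-452), so the folds against BF-0d and BF-2d depend on the pseudocount and the tool. Cultures were bulk, libraries are not tied to piglets, and PCR copies cannot be removed. Of 312 values of the members under alternatives, 72 (no filter, one fit of all libraries, replicate block) equal the main value by construction, since in this balanced design they leave a difference of group means as it is. Of the other 240, 199 moved by less than 1 SD of the libraries, 41 moved by more and 6 had another sign, all 6 without 1 library and in comparisons whose groups overlapped.

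With a pseudocount of 0.1 the log2 change of miR-224 was 6.08 from BF-0d to BF-8d, 1.503 from BF-0d to BF-2d, 2.94 from BF-2d to BF-4d, -2.11 from IMF-0d to IMF-2d, 1.41 from IMF-2d to IMF-4d, 2.86 from IMF-4d to IMF-8d and 4.13 from BF-0d to IMF-0d. For miR-452 it was 6.65 from BF-0d to BF-8d, 3.66 from IMF-0d to IMF-8d, 1.66 from BF-0d to BF-2d, 3.95 from BF-2d to BF-4d, -0.53 from IMF-0d to IMF-2d, 4.12 from IMF-4d to IMF-8d, 3.55 from BF-0d to IMF-0d and 1.36 from BF-2d to IMF-2d. With edgeR and DESeq2 on whole reads miR-224 gave 6.87 and 7.00 from BF-0d to BF-8d, 2.52 and 2.54 from BF-0d to BF-2d, 2.68 and 2.72 from BF-2d to BF-4d, -2.05 and -2.01 from IMF-0d to IMF-2d, 1.52 and 1.503 from IMF-2d to IMF-4d, 5.26 and 5.37 from BF-0d to IMF-0d, and 0.73 and 0.76 from BF-2d to IMF-2d. miR-452 gave 7.35 and 7.47 from BF-0d to BF-8d, 3.61 and 3.61 from IMF-0d to IMF-8d, 3.05 and 3.07 from BF-0d to BF-2d, 3.28 and 3.33 from BF-2d to BF-4d, -0.60 and -0.55 from IMF-0d to IMF-2d, and 4.51 and 4.61 from BF-0d to IMF-0d. All of these keep the direction of the reported value, and the scale of the pseudocount is part of the difference by construction. A filter at a mean of 10 TPM removed both members, so it gave no value for them.

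The calls from BF-0d to BF-8d numbered 184, and 105 with a mean of at least 10 TPM. Those from IMF-0d to IMF-8d numbered 131, 70 with no filter and 76 with a mean of at least 10 TPM. The stricter filter leaves fewer entries to test, and no filter adjusts over more. With no filter the calls among promoting entries were 8 in BF and 7 in IMF in place of 13 and 12, and those among repressing entries 9 in BF and 0 in IMF in place of 14 and 3. Repressing calls in IMF were 5 with a mean of at least 10 TPM, 7 with edgeR, 7 with DESeq2, and 1 to 5 when 1 library was left out. The cause was not tested. Of the 5 closest known entries, 3 stayed among the closest 5 with a pseudocount of 0.1 and 3 to 4 without the libraries of 1 number, with miR-133a-3p first in each of these. The ratio of miR-452 to miR-224, IMF minus BF, ranged from -0.45 to 0.11 without the libraries of 1 number and changed sign without number 2. The share between days then ranged from 60.8% to 96.4% in IMF and from 25.2% to 66.4% in BF. Leaving out a number also raises the share that random assignment to days would give.

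The replicate numbers were not used as pairs, since no library is tied to a piglet. The deviations of libraries from their group means were correlated between groups. Over 84 pairs of libraries with the same number the correlation ran from -0.33 to 0.51 with a median of -0.0035, and 21 pairs were over 0.1. Over 168 pairs with different numbers the median was -0.0014. The block cannot move the members' log2 changes. With it, the calls numbered 177 from BF-0d to BF-8d and 128 from IMF-0d to IMF-8d.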
